A study of Mus musculus with 6 samples.

Results

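The genes described here are 8 transcripts of renal water and urea transport: 6 aquaporins (Aqp1, Aqp2, Aqp3, Aqp4, Aqp7 and Aqp11), the V2 vasopressin receptor gene Avpr2 and the urea transporter gene Slc14a2. They were taken by symbol from a table of 24346 gene symbols, and all 8 were listed. Kidney RNA of C57BL/6 mice was sequenced in 6 libraries, 3 labelled with the surgery IVCC, an abbreviation left unexplained there, and 3 labelled Sham, in a study of renal congestion. Genetic changes, drugs, age, sex, time after surgery and the part of the kidney sampled are not stated in what was used here. Nothing in the labels ties a replicate to an animal of its own, and the p-values below therefore cover library-to-library spread that may be technical.

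Water leaves the tubule through aquaporins, tetrameric channels that lie in the membranes of each nephron segment in a fixed pattern. AQP1 carries the bulk water flow of the proximal tubule and thin descending limb, whereas in collecting duct principal cells vasopressin acts on the V2 receptor, raises cAMP and moves AQP2 to the apical membrane, from which water exits through AQP3 and AQP4 on the basolateral side. The same hormone raises transcription of Aqp2 and stimulates the urea transporters that Slc14a2 encodes, which load the inner medulla with urea.

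Promoter windows are shown for the members on which the results below turn: Aqp2, the main transcriptional target of vasopressin, and Aqp7 and Aqp1, the members whose groups did not overlap. Each window spans bases 250 to 11 before a RefSeq start site (GRCm38.p6) and is written 5′ to 3′ on the gene's strand, and windows were read for 6 of the 8 members. Aqp2 is at chr15:99578806-99579045 (plus strand), Aqp7 at chr4:41048147-41048386 (minus strand, the upstream of its start sites) and Aqp1 at chr6:55336049-55336288 (plus strand). Capitals mark the core of the cAMP response element (TGACG, or CGTCA on the other strand), a GATA factor motif (GATAAG, or CTTATC) and the core of the tonicity element that NFAT5 binds (TGGAAA, or TTTCCA).
Aqp2: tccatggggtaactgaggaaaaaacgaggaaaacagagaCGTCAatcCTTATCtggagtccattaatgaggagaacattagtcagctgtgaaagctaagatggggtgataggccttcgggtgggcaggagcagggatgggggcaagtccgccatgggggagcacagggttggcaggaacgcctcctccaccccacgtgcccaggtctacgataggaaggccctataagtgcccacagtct
Aqp7: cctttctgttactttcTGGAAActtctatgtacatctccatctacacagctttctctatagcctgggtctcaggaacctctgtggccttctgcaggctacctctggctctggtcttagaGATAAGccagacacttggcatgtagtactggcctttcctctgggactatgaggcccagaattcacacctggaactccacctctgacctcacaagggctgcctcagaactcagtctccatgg
Aqp1: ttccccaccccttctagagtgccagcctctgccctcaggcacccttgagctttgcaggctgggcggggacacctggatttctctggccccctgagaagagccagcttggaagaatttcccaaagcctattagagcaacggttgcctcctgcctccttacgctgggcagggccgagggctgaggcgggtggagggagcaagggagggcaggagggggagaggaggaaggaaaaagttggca

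The Aqp2 window held the cAMP element core and the GATA motif side by side, that of Aqp7 held the GATA motif and the tonicity core, and that of Aqp1 held none of the 3. Searched on both strands over 32851 windows of the same length, the cAMP core was present in 16.9%, the GATA motif in 6.34% and the tonicity core in 18.0%. The motifs do not overlap each other, and a match describes letters in this window and not binding.

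Levels are in FPKM, by its name fragments scaled to transcript length and to a mapped total, so they can be compared between genes. Whether the authors also scaled the libraries to each other is not given. FPKM keep no read totals. Low values move in steps of single reads, and from those steps the IVCC libraries came to a nominal 8030000 to 8990000 reads and the Sham libraries to 6040000 to 7230000, under an assumed fragment of 200 bp. Each IVCC library was thus nominally deeper than each Sham library. Deposited FPKM summed to 719896 to 1118258 per library, and the Spearman correlation over genes was 0.971 to 0.976 within groups and 0.968 to 0.977 between them. The libraries carried proximal and cortical tubule markers: the summed level of the proximal tubule list was 11800 to 14360 FPKM in IVCC and 11930 to 15740 FPKM in Sham. Several transcripts of the deep medulla were at or near 0: the betaine transporter Slc6a12 did not exceed 0.206 FPKM, nor the thin limb genes Corin and Fst 0.702 FPKM, in any library.

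The members covered a wide range, and their order was the same in both groups. Aqp1 was highest, with a mean of 293 ± 15.9 FPKM for IVCC against 326 ± 16.9 FPKM for Sham (SD over 3 libraries, n = 3 here and below), followed by Aqp2, Aqp3, Aqp11, Avpr2, Aqp7, Aqp4 and Slc14a2. No neighbours in this order overlapped in IVCC. In Sham, Avpr2 and Aqp7 overlapped, and the other neighbours did not.

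**Figure D1:**
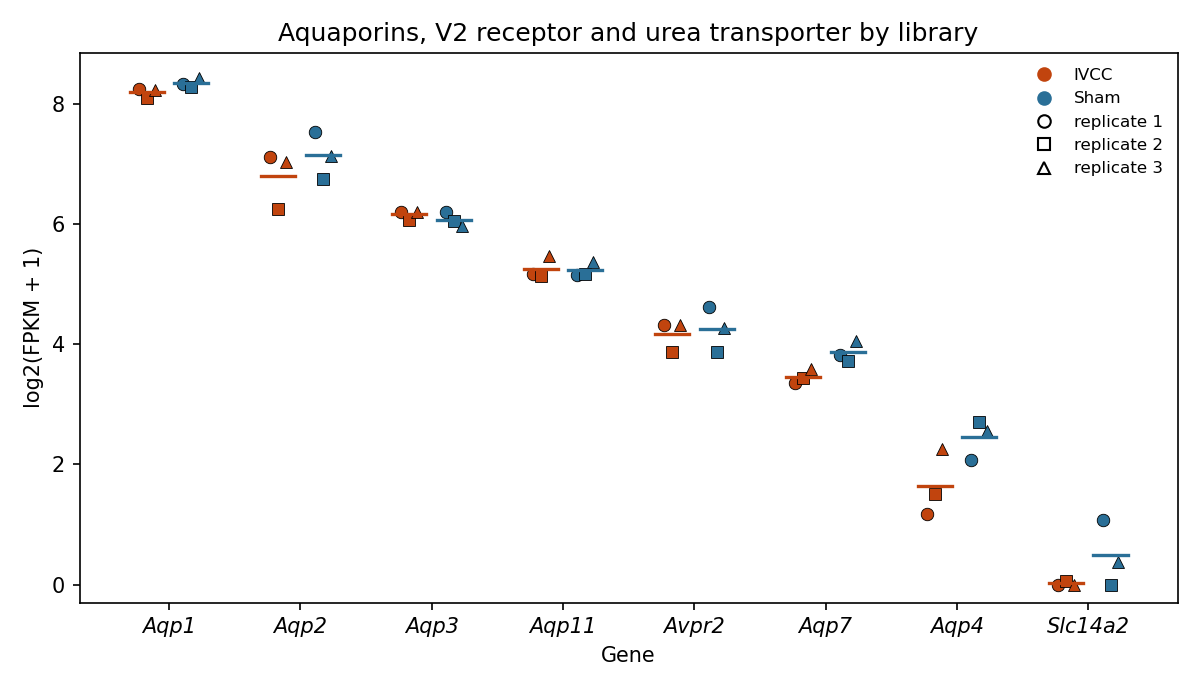
Level of each member in each library on the log2(FPKM + 1) scale; points are libraries, shaped by replicate number, and bars are group means. Aqp7 and Aqp1 lie lower in all 3 IVCC libraries than in any Sham library, whereas Aqp2 and Avpr2 spread widely within both groups, and Slc14a2 is above 0.3 FPKM only in Sham replicate 1.

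No member passed the test between IVCC and Sham. Of the 8 members, 7 reached the filter of a mean of 1 FPKM, and limma on log2(FPKM + 1) called 0 of these 7 at an adjusted p under 0.05, beside 0% of all 12090 genes tested. At an unadjusted p under 0.05 there were 2 members, Aqp7 and Aqp4, both lower in IVCC, against 3.56% of all genes tested (1.87% lower and 1.7% higher). The fitted value was lower in IVCC for 5 of the 7 and higher for 2, while 51.6% of all genes tested had a lower one, and the median log2 fold change was -0.15 over the members and -0.01 over all genes tested. Groups did not overlap for 2 of the 7, Aqp7 and Aqp1, both lower in IVCC, against 8.31% of all genes in either direction, 4.22% lower and 4.09% higher. Rescaling the libraries to equal sums (TPM) moved the median log2 fold change of all genes to 0.14 and that of the members to 0.03, and genes lower without overlap then made up 1.76% of those tested and those in either direction 7.68%. Among the members, Aqp7 was still lower without overlap on that scale, Aqp1 overlapped, and Aqp11 was higher without overlap. In bulk RNA, fewer cells of a type and less RNA per cell cannot be told apart.

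**Figure D2:**
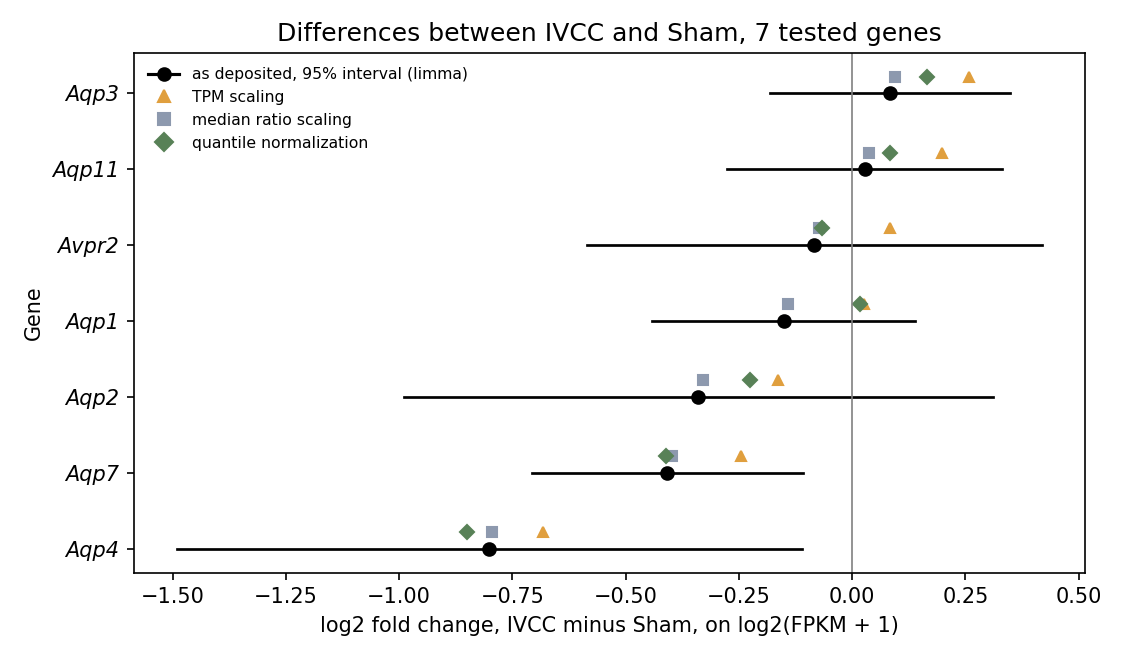
Log2 fold change (IVCC minus Sham) of the 7 tested members on the log2(FPKM + 1) scale; black points and lines are limma's estimates with 95% intervals, coloured symbols the estimates under 3 other scalings. Only the intervals of Aqp7 and Aqp4 leave out 0, and Aqp1 and Avpr2 change sign under TPM scaling, Aqp1 also under quantile normalization.

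Aqp7, an aquaglyceroporin of the straight proximal tubule that passes glycerol as well as water, had the smallest p of the members. Its level was 9.27, 9.88 and 11.03 FPKM in IVCC replicates 1 to 3 and 13.2, 12.2 and 15.7 FPKM in Sham replicates 1 to 3. Each IVCC library was below each Sham library, and this held under TPM, median ratio and quantile scaling. The means were 10.1 ± 0.896 and 13.7 ± 1.76 FPKM, a difference of -26.6% relative to Sham. The log2 fold change was -0.41 (95% interval -0.71 to -0.11, unadjusted p = 0.0140, limma adjusted p = 0.924). Relative to all genes, it was -0.40 as deposited and -0.39 after TPM scaling. Without any single library it lay between -0.48 and -0.32.

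The straight proximal tubule markers form a list of 10 genes without Aqp7. Fitted values were lower in IVCC for 9 of the 10 and higher for the glucose transporter Slc5a1. The median log2 fold change of the list was -0.30 as deposited, where that of all genes was -0.01. It was -0.12 after TPM scaling, where the median of all genes was 0.14. After quantile normalization it was -0.15, where the median of all genes was -0.003. Groups did not overlap for 5 of the 10, 4 lower and Slc5a1 higher (log2 fold change 0.04), against 8.31% of all genes tested. The 3 with the smallest p were the organic anion transporters Slc22a13 and Slc22a7 and the oxysterol hydroxylase Cyp7b1, and none passed the adjustment over all genes (limma adjusted p = 0.905 to 0.924). Slc22a7 averaged 80.04 FPKM in IVCC and 148.7 in Sham, and Cyp7b1 69.0 and 151.9 FPKM. Set against the mean of these markers in the same library, Aqp7 lay at -3.19 ± 0.03 in IVCC and -3.22 ± 0.22 in Sham on the log2 scale, so the difference between the groups was 0.03 and the groups overlapped. Whether Aqp7 changed apart from these markers was not tested. Adipocytes also carry Aqp7. Of 9 adipocyte markers, 5, Adipoq and Plin1 among them, were listed at 0 in all 6 libraries, and the summed list was 47.1 to 60.7 FPKM in IVCC and 42.1 to 64.1 FPKM in Sham, nearly all from the lipases Pnpla2 and Lipe. The part of these cells in the Aqp7 values was not tested.

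**Figure D3:**
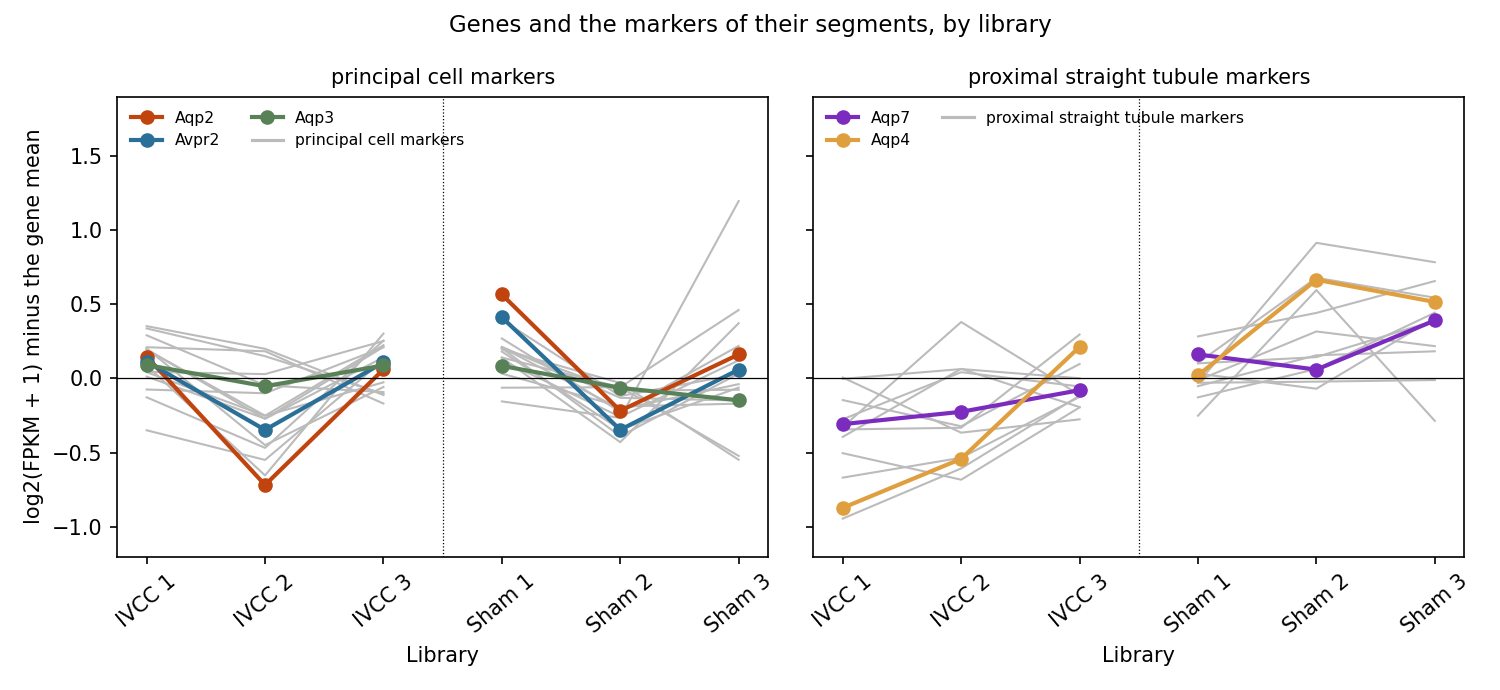
Deviation of each gene from its own mean over the 6 libraries, on the log2(FPKM + 1) scale, with members in colour over the tested markers of a segment in grey. At the left, Aqp2 and Avpr2 are low in replicate 2 of both groups; at the right, Aqp7 lies among straight tubule markers that are mostly lower in the IVCC libraries, and Aqp4 is lowest in IVCC replicates 1 and 2.

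Aqp1 is the constitutive water channel of the proximal tubule, thin descending limb and descending vasa recta, encoded on chromosome 6 (55336432 to 55348555, plus strand, GENCODE M21 on GRCm38). It was listed at 304.5, 275 and 300.0 FPKM in IVCC replicates 1 to 3, and at 322, 311 and 344 FPKM in Sham. The highest IVCC value was just under the lowest Sham value. The IVCC mean differed from that of Sham by -9.97%, with a log2 fold change of -0.15 (95% interval -0.44 to 0.14, limma adjusted p = 0.924). This direction depended on the scaling: the log2 fold change was 0.03 after TPM scaling and 0.02 after quantile normalization, and the groups overlapped under both. After median ratio scaling the log2 fold change was -0.14, still lower without overlap. Relative to the median of all genes it was -0.14 as deposited, -0.12 after TPM scaling and 0.02 after quantile normalization. Against the mean of 15 proximal tubule markers in the same library, Aqp1 lay at -0.17, -0.35 and -0.16 in IVCC and at 0.05, 0.07 and -0.01 in Sham, a difference of -0.26 with no overlap. That proximal list had 9 genes higher and 6 lower, led by the amino acid transporters Slc6a19 and Slc7a8 and the bicarbonate transporter Slc4a4. Its median log2 fold change was 0.14, and 3 genes were higher without overlap, against 4.09% of all genes tested. None was past the adjustment. Whether Aqp1 changed apart from these markers was not tested.

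Aqp11 encodes a channel of the endoplasmic reticulum in proximal tubule cells, where its loss is known to cause vacuoles and cysts. It was at 35.0, 34.4 and 43.2 FPKM in IVCC and 34.7, 34.9 and 40.4 FPKM in Sham. The groups were interleaved, and replicate 3 was highest in both. The log2 fold change was 0.03 (95% interval -0.28 to 0.33, limma adjusted p = 0.972), and 0.20 after TPM scaling, where the median of all genes was 0.14.

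In the collecting duct, Aqp2 was the most abundant member and varied strongly among libraries of the same group. Aqp2, the channel that vasopressin inserts into the apical membrane (chromosome 15, 99579055 to 99584547, plus strand), was at 138.5, 75.6 and 130.3 FPKM in IVCC replicates 1 to 3. In Sham it was at 185.4, 107.3 and 139.9 FPKM. Replicate 2 was lowest in both groups and the groups overlapped. The means were 114.8 ± 34.2 and 144.2 ± 39.2 FPKM, and the log2 fold change was -0.34 (95% interval -0.99 to 0.31, unadjusted p = 0.260, limma adjusted p = 0.924). Without IVCC replicate 2 this was -0.07, without Sham replicate 1 it was -0.14, and without Sham replicate 2 it was -0.53. The coefficient of variation was 29.8% in IVCC and 27.2% in Sham, against 5.42% and 5.20% for Aqp1.

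Avpr2, the Gs-coupled receptor through which vasopressin acts on these cells, is X-linked. Its levels were 19.05, 13.6 and 18.97 FPKM in IVCC and 23.7, 13.6 and 18.3 FPKM in Sham. The same replicate numbers were high and low as for Aqp2, and the groups overlapped. The log2 fold change was -0.08 (95% interval -0.59 to 0.42, limma adjusted p = 0.952), and 0.08 after TPM scaling, where the median of all genes was 0.14.

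Aqp3, a basolateral exit channel of principal cells, was at 73.1, 66.1 and 73.0 FPKM in IVCC and 72.8, 65.6 and 61.9 FPKM in Sham. These values overlapped, with a log2 fold change of 0.08 (95% interval -0.18 to 0.35, limma adjusted p = 0.925). Aqp3 and Aqp7 lie 44.6 kb apart on chromosome 4 and had fitted differences of opposite sign, which was so under all 3 other scalings too. Aqp3 is also made by the urothelium of the renal pelvis. Summed, the 8 urothelium markers were 1.10 to 2.18 FPKM in IVCC and 1.35 to 11.4 FPKM in Sham, where Upk2 was above 0 in replicate 3 alone, at 2.19 FPKM. Their part in the Aqp3 values was not tested.

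Aqp4, another basolateral water channel of principal cells that mouse kidneys also carry in the straight proximal tubule, was low throughout. Its IVCC libraries had 1.26, 1.84 and 3.799 FPKM and its Sham libraries 3.20, 5.57 and 4.92 FPKM. IVCC replicate 3 lay above Sham replicate 1, so the groups overlapped. The means were 2.30 ± 1.33 and 4.56 ± 1.22 FPKM, and the log2 fold change was -0.80 (95% interval -1.49 to -0.11, unadjusted p = 0.0283, limma adjusted p = 0.924). It was -1.06 with a pseudocount of 0.1 and -0.40 with one of 5, and between -1.11 (without IVCC replicate 3) and -0.57 (without IVCC replicate 1) when a single library was left out. Few reads stand behind it: at the median GENCODE basic transcript length of 1282 bp the IVCC values come to a nominal 11 to 37 reads and the Sham values to 23.9 to 43.6, and these transcripts range from 1106 to 5054 bp.

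**Figure D4:**
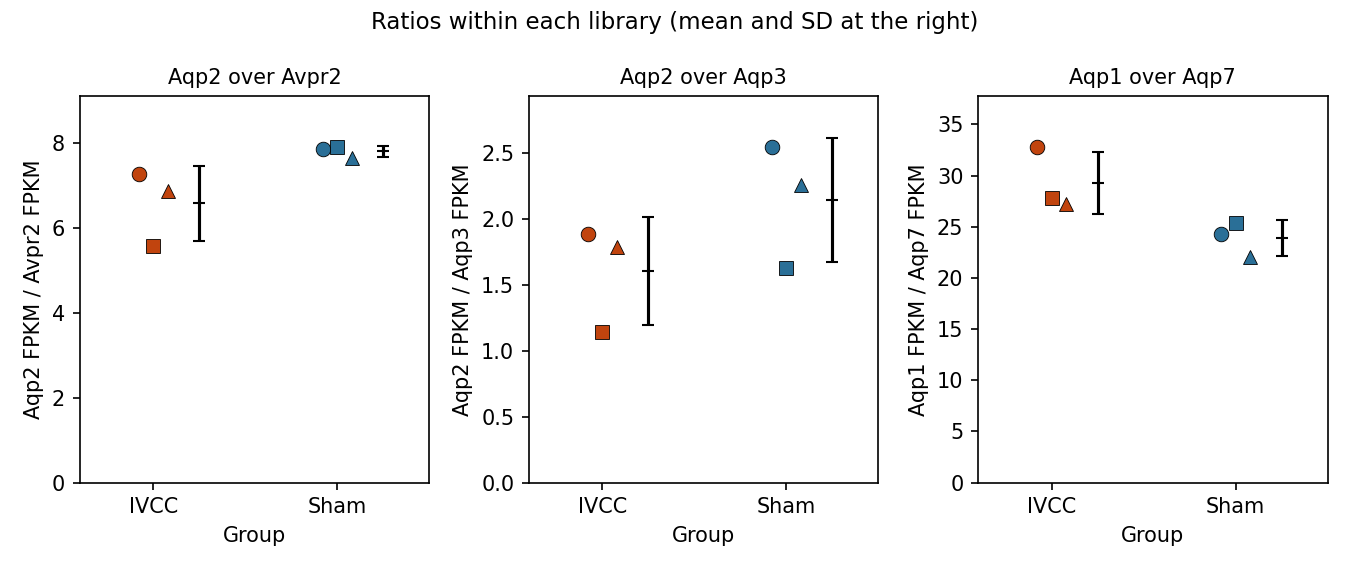
Ratios of FPKM between members within each library, by group, with the mean and SD at the right of the points; all axes start at 0. Aqp2 over Avpr2 is 5.57 to 7.27 in IVCC and 7.64 to 7.90 in Sham, Aqp2 over Aqp3 overlaps between the groups, and Aqp1 over Aqp7 is higher in all IVCC libraries.

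Ratios between members within a library were formed after the values had been seen and are given without a test. Aqp2 over its receptor gene Avpr2 was 7.27, 5.57 and 6.87 in IVCC and 7.84, 7.90 and 7.64 in Sham. All IVCC ratios were below all Sham ratios, although neither gene was separated by group alone, and the Sham ratios were closer together (SD 0.137) than those of IVCC (SD 0.891). Apical over basolateral channel, Aqp2 over Aqp3, was 1.89, 1.14 and 1.79 in IVCC and 2.55, 1.63 and 2.26 in Sham, with overlap. Aqp1 over Aqp7 was 29.3 ± 3.10 in IVCC and 23.9 ± 1.75 in Sham, without overlap, and both genes were already lower without overlap by themselves. Aqp2 over Aqp4 and Aqp3 over Aqp4 were formed too, and both overlapped. How often the ratios of other gene pairs separate the groups was not computed.

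Principal cell markers other than the members had fitted values in both directions. Of 14 tested, 8 had a higher and 6 a lower fitted value in IVCC, and none was separated by group. The median log2 fold change was 0.02, and 0.17 after TPM scaling, where the median of all genes was 0.14. Gata2, a transcription factor of the collecting duct, the sialyltransferase St6gal1 and the keratin Krt19 had the smallest p, all at a limma adjusted p of 0.924. Kcnj1 was counted among these markers and in the thick ascending limb list too. Relative to the mean of these markers in the same library, Aqp2 lay at 2.35 ± 0.31 in IVCC and 2.68 ± 0.23 in Sham on the log2 scale, with overlap. Avpr2 lay at -0.29 ± 0.10 and -0.21 ± 0.21, and Aqp3 at 1.71 ± 0.09 and 1.62 ± 0.17. The difference for Aqp4 on this scale was -0.79, also with overlap.

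Slc14a2, the gene of the UT-A urea transporters of the inner medullary collecting duct and thin descending limb, was close to absent. It was listed at 0, 0.043 and 0 FPKM in IVCC replicates 1 to 3 and at 1.12, 0 and 0.300 FPKM in Sham. Only Sham replicates 1 and 3 were above 0.1 FPKM, and Sham replicate 2 was at 0 like a pair of the IVCC libraries. The value of Sham replicate 1 comes to a nominal 20.0 reads and that of IVCC replicate 2 to 0.9, at a median transcript of 2793 bp. The mean stayed below the filter, a listed 0 may stand for an estimate that failed, and no fold is given. Psca, a urothelium marker, was also highest in Sham replicates 1 and 3, at 2.63 and 3.25 FPKM, and at 0.668 FPKM or less in the other 4, and its part in these values was not tested.

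The erythroid and vasa recta urea transporter Slc14a1, which lies 4.0 kb from Slc14a2 on chromosome 18, was at 0.035, 0.069 and 0.096 FPKM in IVCC and 0.209, 0.324 and 0.191 FPKM in Sham. The groups did not overlap, yet these values come to a nominal 0.6 to 1.7 reads for IVCC libraries and 2.3 to 4.7 for Sham libraries, too few to show a difference. All 7 capillary markers tested, which leave out Slc14a1, had a higher fitted value in IVCC, while 51.6% of all genes tested had a lower one. Pecam1 and Cdh5 were higher without overlap, against 4.09% of all genes tested, and Kdr, with the next smallest p, overlapped. None passed the adjustment over all genes, and the part of capillaries in the Slc14a1 values was not tested.

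Of the remaining aquaporins only Aqp6 and Aqp8 reached the filter. Aqp6, an anion-permeable channel inside intercalated cells, was at 16.1, 13.5 and 17.8 FPKM in IVCC and 15.2, 12.05 and 20.1 FPKM in Sham, with a log2 fold change of 0.02 (limma adjusted p = 0.986). Aqp8 was at 0.970 to 1.37 FPKM in all libraries. Aqp5, which sits 6.2 kb beyond Aqp2 with Aqp6 a further 6.6 kb on, was at 0.211 FPKM or less, Mip and Aqp9 at 0.133 FPKM or less, and Aqp12 was listed at 0 in all 6 libraries.

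No gene around the receptor and channel passed the test. In the vasopressin signalling list, 19 of 23 genes were tested, 13 higher and 6 lower, with 0 past the adjusted and 0 past the unadjusted threshold in limma. The median log2 fold change was 0.09, and 0.22 after TPM scaling, where the median of all genes was 0.14. Of the 19, 1 gene, Adcy9, was higher without overlap, against 4.09% of all genes tested. It was at 2.96 to 3.31 FPKM in IVCC and 2.92 to 2.95 FPKM in Sham. Gnas, the stimulatory G protein subunit coupled to the V2 receptor, averaged 515.2 ± 99.3 FPKM in IVCC and 604.3 ± 59.7 in Sham. The vasopressin-sensitive adenylyl cyclase Adcy6 averaged 15.7 and 13.8 FPKM, and the protein kinase A subunit Prkar2a 10.6 and 7.87 FPKM, with overlap in all 3 genes. The related receptor Avpr1a was at 3.39 to 5.97 FPKM in IVCC and 3.49 to 6.10 FPKM in Sham, and Avpr1b was listed at 0.

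For AQP2 trafficking and turnover, 23 of 24 genes were tested, 13 higher and 10 lower, with 0 past either threshold and none separated by group. The smallest p were those of the chaperone Hspa2, the recycling GTPase Rab11a and the ubiquitin ligase Nedd4 (limma adjusted p = 0.924 each). Rab11a, which marks the compartment that holds AQP2 vesicles, averaged 62.8 FPKM in IVCC and 70.8 in Sham.

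Among receptors and enzymes listed as opposing vasopressin, 6 of 12 were tested, 5 higher and 1 lower. That lower gene was Ptger3, the Gi-coupled prostaglandin E2 receptor that lowers cAMP in tubule cells. It was at 9.46, 9.42 and 10.1 FPKM in IVCC and 10.96, 14.1 and 15.7 FPKM in Sham, and each IVCC value was below each Sham value (log2 fold change -0.44, unadjusted p = 0.0156, limma adjusted p = 0.924). Genes lower without overlap made up 4.22% of all genes tested. Below the filter, Ptger4 of the same list was at 0.726 to 0.850 FPKM in IVCC and 0.881 to 1.06 FPKM in Sham, also lower without overlap. The other untested genes of the list overlapped. The calcium-sensing receptor Casr was high in IVCC replicates 1 and 2, at 9.12 and 9.69 FPKM, and at 3.86 to 4.88 FPKM in the other 4 libraries, with a limma adjusted p of 0.924. Ptger1, another prostaglandin E2 receptor, averaged 7.92 and 6.85 FPKM.

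Of 17 transcription factors linked to Aqp2 or principal cells, 13 were tested, 6 higher and 7 lower, none past either threshold. Tfcp2l1, which sets collecting duct cell fate, averaged 37.1 FPKM in IVCC and 29.9 in Sham, Gata2 8.003 and 6.74 FPKM, and Hoxb7 25.8 and 31.2 FPKM, all with overlap. The tonicity factor Nfat5 was at 5.19 to 7.07 FPKM in IVCC and 5.40 to 7.19 FPKM in Sham. Elf5, a principal cell factor below the filter, was at 0.481, 0.523 and 0.283 FPKM in IVCC and 0.962, 1.08 and 0.592 FPKM in Sham, all lower in IVCC, and was picked out after its values had been seen.

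Markers of other segments held both directions, with none past the adjustment over all genes. The thick ascending limb list had 4 higher and 4 lower (led by Egf, Ppp1r1a and Cldn10), the distal and connecting tubule list 6 and 2 (Wnk1, Trpv5 and Slc12a3), and the intercalated cell list 8 and 2 (Atp6v1g3, Car2 and Insrr). Of 12 genes listed for the thin limb 5 were tested, 2 higher and 3 lower (Cldn19 and Cldn4 among those with the smallest p). How far these 5 belong to the thin limb alone was not tested. Red cell markers, relevant because erythrocytes carry AQP1, had 3 higher and 2 lower (Alas2, Hbb-bs and Slc4a1). Of these, Hbb-bs is uncertain because it shares reads with near-identical globin copies, and Slc4a1 was counted in the intercalated cell list too. In the list of inner medulla and osmotic response genes 7 of 10 were tested, 5 higher and 2 lower, led by Cryab, S100a4 and Hspa4l. Below the filter, Wnt7b of this list was at 0.111 to 0.457 FPKM in IVCC and 0.582 to 1.075 FPKM in Sham. Slc4a11 of the thin limb list, also below the filter, was at 0.403 to 0.687 FPKM in IVCC and 0.947 to 1.426 FPKM in Sham. Both were lower without overlap and were picked out after their values had been seen. The other untested genes of both lists overlapped. Cryab, a small heat shock protein abundant in the papilla, was at 51.8 to 97.3 FPKM in IVCC and 116.8 to 161.9 FPKM in Sham, without overlap, while the inositol transporter Slc5a3 and the taurine transporter Slc6a6, both targets of NFAT5, overlapped, with log2 fold changes of 0.02 and 0.07.

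The genes closest to each member in profile were found by the root mean square difference between log2 values centred on each gene's mean, over the 6 libraries. For Aqp2 they were Tagln (0.120), Ier5l (0.130) and Relb (0.15). Ier5l was also among the closest to Avpr2 (0.0662), with Rab40b (0.0565) and Rita1 (0.0698). Avpr2 was the member closest to Aqp2, at 0.179. Of the genes tested, without predicted and small RNA genes, 0.124% lay that near to Aqp2 or nearer, Avpr2 included. Counted from Avpr2, the share that lay as near as Aqp2 or nearer was 2.85%. For Aqp4 they were Irx1 (0.148), Syce2 (0.153) and Slc22a7 (0.165), the last of which is a straight tubule marker. For Aqp7 they were Cbr4 (0.0351), Ccbl2 (0.0387) and Fam213a (0.0399), and for Aqp1 Ing2 (0.0255), Yipf5 (0.0266) and Txndc5 (0.0268). Plekhg5, Syde1 and Adck1 (0.0227 to 0.0263) were closest to Aqp3, and Sh3gl1, Azin2 and Ciz1 (0.0248 to 0.0324) to Aqp11. Small differences come easily to genes that vary little, and Aqp1, Aqp3 and Aqp11 deviated from their own means by only 0.0982, 0.0927 and 0.125.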

How the data were processed

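Per the labels' protocols, kidney RNA went into strand-specific mRNA libraries read from a single end over 75 bp. The authors deposited FPKM for 24346 symbols in all 6 libraries. Per the submitters' processing notes, the build was mm10 and the tools named, with no roles, were Cufflinks 2.2.1, TopHat2 2.0.13, SAMtools 0.1.19 and Bowtie2 2.2.3. What annotation, filters or scaling the authors applied is not given here.

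The 12090 genes averaging 1 FPKM or more were tested on log2(FPKM + 1) with limma 3.58.1 in R 4.3.3 (mean-variance trend, two-sided, all 6 libraries, no covariate), with Benjamini-Hochberg adjustment over all genes tested and a threshold of 0.05. Fold changes on this scale understate those of low genes. An exact permutation test of 3 against 3 cannot go below p = 0.1 and was not used. The fit was tested on simulated data.

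Nominal library sizes were those at which most values below 0.1 FPKM were whole reads within 0.1 (81.1% to 85.7% per library), among genes with 1 transcript of 1500 to 5000 bp. This was too few for a count test.

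Members and lists were chosen with earlier results of these data known. All 8 members are described, with the 3 genes of smallest p in each other list and the 3 genes closest to each member, leaving out predicted and small RNA genes. Of the genes this takes, 1 is not reported here. Members were set against segment markers by the difference of log2 values in each library. The alternatives tried were a filter at 5 FPKM or none, pseudocounts of 0.1 and 5, TPM, median ratio and quantile scaling, eBayes without trend and robust, the replicate number as a block, and each library left out. Sequences are from RefSeq (GRCm38.p6) and gene positions from GENCODE M21.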

Additional observations from a re-analysis of the deposited data

How the results depend on the processing

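No member passed the adjusted threshold under any of the 16 alternatives tried. Aqp2, Aqp4, Aqp7 and Aqp3 kept their direction in every alternative that gave a value, while the others turned in 8 cases, and the cause was not tested. Aqp1 turned to 0.0252 with TPM scaling and 0.0183 with quantile normalization. Avpr2 turned to 0.0831 with TPM scaling, 0.0685 without IVCC replicate 2 and 0.101 without Sham replicate 1, in a leave-one-out range from -0.278. Aqp11 turned to -0.0754 without IVCC replicate 3, -0.00905 without Sham replicate 1 and -0.00663 without Sham replicate 2, in a leave-one-out range up to 0.0974. The count of genes past the threshold, 0 as reported, was 23 with no filter and 0 to 4 when single libraries were left out (2, 3 and 4 without IVCC replicates 1, 2 and 3, and 1 without Sham replicate 2). Aqp7 had an unadjusted p of 0.0609 without IVCC replicate 1 and 0.146 with TPM scaling, and Aqp4 one of 0.0939, 0.0725, 0.0868 and 0.0689 without IVCC replicate 1, IVCC replicate 2, Sham replicate 2 and Sham replicate 3, 0.0766 with no filter and 0.0505 with TPM scaling. Aqp4 was not tested at the filter of 5 FPKM. Slc14a2 had a value only with no filter (-0.466, limma adjusted p = 1).

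With the replicate number as a block, no gene passed (0 genes, 0 members), the smallest adjusted p of any gene was 0.0775, and those of Aqp7, Aqp4, Aqp2 and Aqp1 were 0.101, 0.118, 0.135 and 0.234 (limma). Genes at an unadjusted p under 0.05 numbered 2388 of 12090 with the block and 431 without. Members among them numbered 4 with the block (Aqp1, Aqp2, Aqp4 and Aqp7) and 2 without. Same-numbered libraries deviated from their group means with correlations over genes of -0.107, 0.343 and 0.323 for replicates 1 to 3. Differently numbered libraries gave -0.371 to 0.0681. Replicates 2 and 3 thus lay above that range and replicate 1 did not, and the numbers were not taken as pairs. IVCC replicate 1 correlated best with Sham replicate 2, and the other 2 IVCC libraries with their own numbers. Depth limits Slc14a2, Slc14a1 and Aqp4, whose nominal reads reached at most 43.6 in any library.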
